A study of Bos taurus with 4 samples.

Results

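Transcripts of the steroid synthesis machinery were followed in cattle granulosa cells, the somatic cells that line the ovarian follicle and make its oestradiol. The genes were chosen by name: STAR, CYP11A1, HSD3B1, CYP19A1, HSD17B1, HSD17B4, HSD17B12, FDX1, FDXR and POR. A probe with 1 of these symbols in the platform annotation was found for 8 of the 10 genes, out of 15216 named genes with a probe. HSD17B12 and FDXR are not named in that annotation and were not analysed here. The 8 genes had 12 probes, with 3 each for STAR and CYP19A1 and 1 for each of the others, and all 12 passed the filter on dim probes.

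The study compared donors of developmentally competent oocytes, called good donors, with donors of incompetent oocytes, called poor donors. All donors were Holstein animals whose ovaries had been stimulated and then left without hormone before collection (coasting), and each sample was total RNA of a pool of granulosa cells, amplified linearly in 2 rounds. Each of the 4 two-colour arrays set 1 good-donor pool against 1 poor-donor pool: pool 1 against pool 9 on array 1, pool 2 against pool 10 on array 2, pool 3 against pool 11 on array 3 and pool 4 against pool 12 on array 4. Good-donor pools were labelled with Cy5 on arrays 1 and 2 and with Cy3 on arrays 3 and 4. The design text counts 94 heifers and cows and places competent oocytes with cows and incompetent ones with heifers, whereas the title and the array labels name heifers, so donor class and age class cannot be told apart. The labels give neither the number of animals in a pool nor whether an animal entered several pools. The p-values therefore measure the spread between these arrays, which may be technical in part. In pooled cells, fewer cells of a type and less RNA per cell cannot be told apart.

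Steroid synthesis begins when the STAR protein moves cholesterol to the inner mitochondrial membrane. There CYP11A1, the side-chain cleavage enzyme, makes pregnenolone with electrons that reach it from FDXR through the small iron-sulphur protein FDX1. HSD3B1 turns pregnenolone into progesterone. In the two-cell model of the follicle, theca cells make androgens with CYP17A1, and granulosa cells turn them into oestrogens with CYP19A1 (aromatase), which draws electrons from POR, the P450 reductase of the endoplasmic reticulum. HSD17B1 reduces oestrone to the more active oestradiol. HSD17B4 is a peroxisomal enzyme that oxidises oestradiol and also takes part in fatty acid oxidation. In cattle, follicle-stimulating hormone maintains aromatase in granulosa cells of the growing follicle, and the surge of luteinising hormone is followed by a loss of aromatase and a gain of STAR as the cells luteinise.

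Levels are given as log2 intensity after normalization, per pool, and differences as the log2 ratio of good over poor on each array, so that a positive ratio means a higher signal in the good-donor pool. Median foreground intensity was between 49.9 and 54.3 in the Cy5 channels and between 90.5 and 132 in the Cy3 channels. Levels of different probes were not compared. Fold differences between pools are given within a dye, while other statements of which pools were high or low run across both dyes, where a probe's own dye bias can shift the order. Over all probes tested, the ratios of arrays 1 and 3 had r = -0.34 and those of arrays 3 and 4 r = 0.29, and the other pairs of arrays lay between -0.07 and 0.06, so the arrays did not share 1 direction of difference. Probe sequences were not used here, so a share of signal from closely related genes was not tested.

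STAR was the most variable of the 8 genes across pools. Its brightest probe (EMBV3_03849) had levels of 12.03, 8.10, 8.58 and 10.26 in good-donor pools 1 to 4, against 8.38, 8.30, 9.18 and 11.31 in poor-donor pools 9 to 12. Pools 1 and 4 of the good donors and pool 12 of the poor donors were high, the other 5 were low, and the donor groups overlapped across nearly their whole range. Among the 4 pools labelled with Cy5, good-donor pool 1 had 15.2 times the signal of good-donor pool 2, so pools of the same donor class lay at both ends. Among those labelled with Cy3, good-donor pool 4 had 3.89 times the signal of poor-donor pool 10. The other probes followed the same pools: over the 8 pools, with the mean of each dye taken off, Pearson's r was 0.97 and 0.98 with the brightest probe and 0.95 between them. Pools of 1 array share a hybridisation, so these r values describe 8 levels that are not independent.

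**Figure D1:**
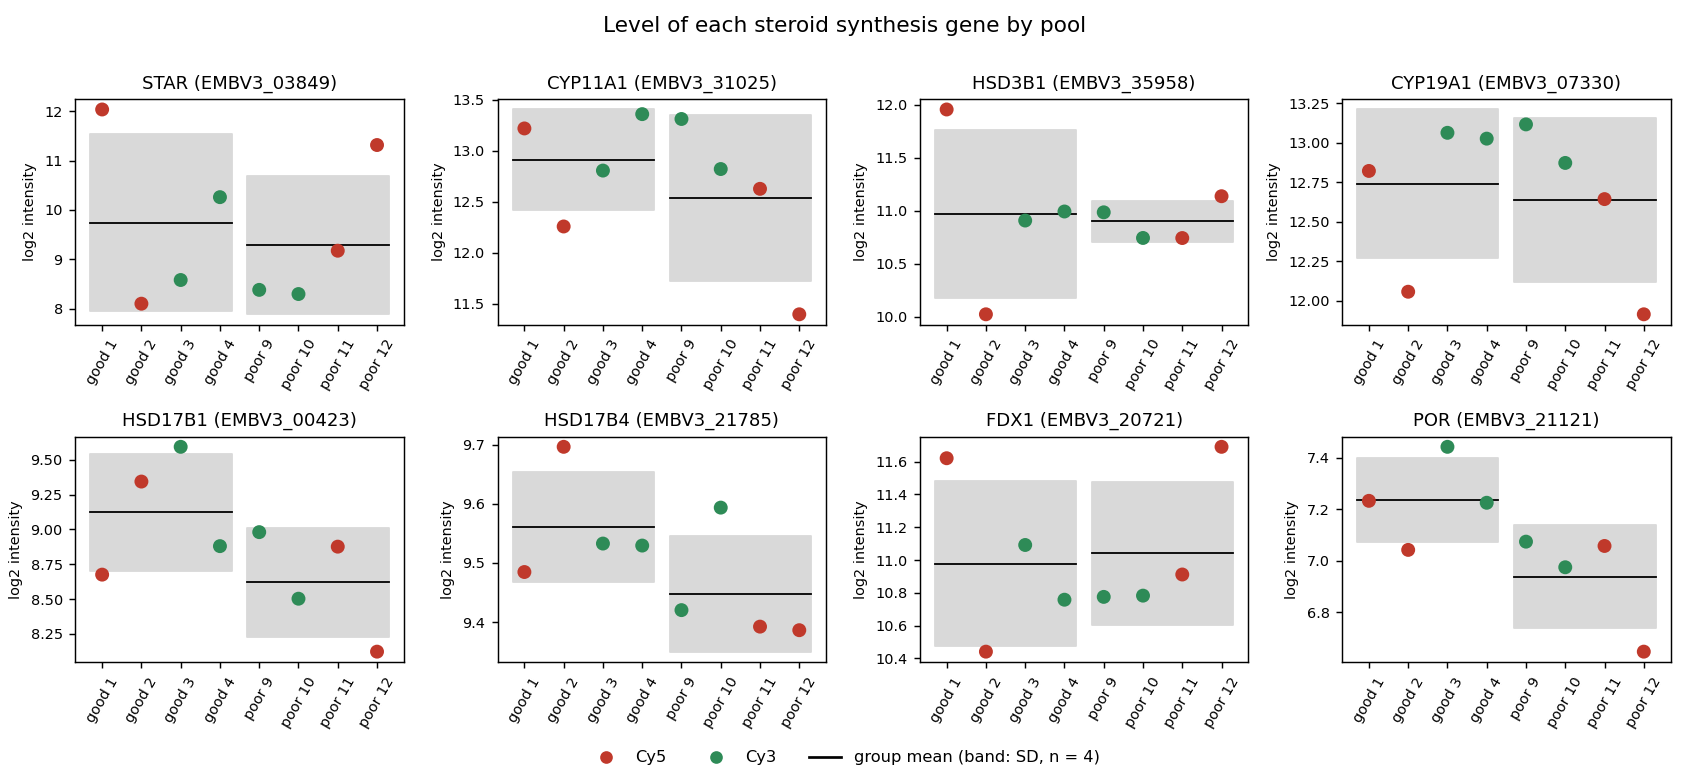
Normalized log2 intensity (y axis, a separate scale in each panel) of the brightest probe of each gene in good-donor pools 1 to 4 and poor-donor pools 9 to 12 (x axis), coloured by dye, with the group mean as a line and the SD over 4 pools as a band. STAR lies between 8.10 and 12.03 with high pools in both donor groups, whereas HSD17B4 lies between 9.39 and 9.70, and in all 8 panels the donor groups overlap.

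The mean level of STAR was 9.75 ± 1.78 in good-donor pools and 9.29 ± 1.40 in poor-donor pools (SD, n = 4 each). By the brightest probe, its ratios were 3.65, -0.20, -0.59 and -1.05 on arrays 1 to 4, and array 1 alone had a positive ratio. The mean ratio of 0.45 ± 2.16 (SD, n = 4) had a 95% interval of -1.71 to 2.61, which spans large differences in either direction (limma adjusted p = 1). Without array 1 the mean turned to -0.61 (limma adjusted p = 0.888), while it was 0.67, 0.80 and 0.95 when arrays 2, 3 and 4 were left out in turn. The 2 other STAR probes gave 0.31 ± 0.91 and 0.79 ± 1.79 (SD, n = 4). Their ratios on arrays 1 to 4 were 1.61, 0.19, -0.04 and -0.52 (EMBV3_18125) and 3.47, -0.06, -0.18 and -0.09 (EMBV3_20036). The dimmer of them (EMBV3_18125) exceeded the control spots in 4 good-donor pools but in 2 of 4 poor-donor pools, which limits how far its size can be read.

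CYP11A1, the enzyme that acts on the cholesterol STAR delivers, did not follow STAR in pool 12. Its levels were 13.22, 12.26, 12.81 and 13.36 in good-donor pools 1 to 4, against 13.31, 12.82, 12.63 and 11.40 in poor-donor pools 9 to 12. Pool 12 was the lowest of all, 3.54-fold below good-donor pool 1 with the same dye, although its STAR signal was the second highest. The mean was 12.91 ± 0.49 among good-donor pools and 12.54 ± 0.81 among poor-donor pools (SD, n = 4 each), and the groups overlapped. The ratios of -0.09, -0.56, 0.18 and 1.96 on arrays 1 to 4 averaged 0.37 ± 1.10 (SD, n = 4), with a 95% interval of -0.74 to 1.48 (limma adjusted p = 1). Without array 4 the mean was -0.16, and without array 2 it was 0.68.

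FDX1, which hands electrons to CYP11A1, resembled STAR more than CYP11A1. Its levels were 11.62, 10.44, 11.09 and 10.76 in good-donor pools 1 to 4, against 10.78, 10.78, 10.91 and 11.69 in poor-donor pools 9 to 12. Pool 12 of the poor donors and pool 1 of the good donors stood above the others, and good-donor pool 2 was the lowest. The ratios were 0.85, -0.34, 0.18 and -0.93 on arrays 1 to 4, and their mean of -0.06 ± 0.76 (SD, n = 4) had a 95% interval of -0.83 to 0.70 (limma adjusted p = 1). The sign of this mean rested on single arrays, since it was 0.03 without array 2 and 0.23 without array 4, while it was -0.36 without array 1 and -0.14 without array 3.

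HSD3B1, which completes progesterone, varied little among poor-donor pools. Its levels were 11.95, 10.02, 10.91 and 10.99 in good-donor pools 1 to 4, against 10.99, 10.74, 10.74 and 11.14 in poor-donor pools 9 to 12. The highest and the lowest pool were both good-donor pools, 3.81-fold apart with the same dye, and all poor-donor pools lay between them. The ratios of 0.97, -0.72, 0.16 and -0.14 on arrays 1 to 4 averaged 0.07 ± 0.70 (SD, n = 4), with a 95% interval of -0.65 to 0.78 (limma adjusted p = 1). Leaving out arrays 1 to 4 in turn gave means of -0.23, 0.33, 0.04 and 0.14, so the sign of the mean rested on array 1.

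CYP19A1, the aromatase and the step that defines oestrogen output, had levels of 12.82, 12.06, 13.06 and 13.03 in good-donor pools 1 to 4, against 13.12, 12.87, 12.64 and 11.91 in poor-donor pools 9 to 12. By its brightest probe, all 4 pools in Cy3, 2 of each donor class, were within 1.18-fold of one another. The 4 in Cy5 were spread over 1.88-fold with poor-donor pool 12 the lowest. For the dimmer probes EMBV3_08064 and EMBV3_36093 the spread was 1.34- and 1.42-fold in Cy3 and 2.22- and 2.12-fold in Cy5. The ratios on arrays 1 to 4 were -0.29, -0.82, 0.42 and 1.11. Their mean of 0.11 ± 0.84 (SD, n = 4) had a 95% interval of -0.74 to 0.95 (limma adjusted p = 1), so a difference of up to 0.95 on the log2 scale lies inside the interval. The 2 dimmer probes had means of 0.14 ± 0.65 and 0.07 ± 0.64 (SD, n = 4), and each had the same sign as the brightest probe on each of the 4 arrays. Without array 4 the mean was -0.23, without array 3 0.0007, and without arrays 1 and 2 in turn it was 0.24 and 0.41.

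The ratios of CYP19A1 and CYP11A1 went with the dye. Both were below 0 on the 2 arrays whose Cy5 channel held good donors and above 0 on the 2 whose Cy3 channel did, with orientation means of -0.55 and 0.77 for CYP19A1 and -0.33 and 1.07 for CYP11A1. The dye term, which is the mean with good donors in Cy5 minus the mean over all 4 arrays, was -0.66 ± 0.16 (SE) for CYP19A1 (limma adjusted p = 0.246) and -0.70 ± 0.34 (SE) for CYP11A1 (limma adjusted p = 0.393). Opposite signs by orientation of this kind were found for 2 of the 8 genes by their brightest probe, against 29.4% of all 31917 probes tested, so the count is near the background. The dye term passed the adjusted threshold for 0% of all probes and an unadjusted limma p under 0.05 for 16.6%. With 2 arrays an orientation, a dye effect and a difference between these pairs of pools cannot be told apart.

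HSD17B1, which makes oestradiol from oestrone, had the largest mean ratio of the 8 brightest probes. Its levels were 8.68, 9.34, 9.59 and 8.88 in good-donor pools 1 to 4, against 8.98, 8.50, 8.88 and 8.12 in poor-donor pools 9 to 12. Within each dye the highest pool was a good-donor pool (2 and 3) and the lowest a poor-donor pool (12 and 10), but the ranges overlapped. The mean was 9.12 ± 0.42 among good-donor pools and 8.62 ± 0.39 among poor-donor pools (SD, n = 4 each). The ratios were -0.31, 0.84, 0.72 and 0.76 on arrays 1 to 4, and their mean of 0.50 ± 0.54 (SD, n = 4), a 1.42-fold difference, had a 95% interval of -0.05 to 1.06 (limma adjusted p = 1). Without array 1, the array on which the ratio was below 0, the mean was 0.77 (limma adjusted p = 0.498), and it was 0.39, 0.43 and 0.42 without arrays 2, 3 and 4 in turn.

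POR, the electron donor of aromatase, had a positive ratio on 4 of 4 arrays, but its probe was dim. It exceeded the control spots in all pools, yet its raw signal in poor-donor pool 12 was 63.3, against a control threshold of 46.2. Its levels were 7.23, 7.04, 7.44 and 7.23 in good-donor pools 1 to 4, against 7.07, 6.97, 7.06 and 6.65 in poor-donor pools 9 to 12. The mean was 7.24 ± 0.16 among good-donor pools and 6.94 ± 0.20 among poor-donor pools (SD, n = 4 each). Good-donor pool 2 lay below poor-donor pools 9 and 11, so the groups overlapped, although each good-donor pool exceeded the poor-donor pool of its own array. The ratios of 0.16, 0.07, 0.39 and 0.58 averaged 0.30 ± 0.23 (SD, n = 4), a 1.23-fold difference, with a 95% interval of 0.04 to 0.56 before adjustment for the number of probes (limma adjusted p = 1). POR also had a dye term of -0.18 ± 0.05 (SE, limma adjusted p = 0.272), with orientation means of 0.11 for good donors in Cy5 and 0.48 for good donors in Cy3. Its mean was 0.34, 0.37, 0.27 and 0.20 without arrays 1 to 4 in turn.

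HSD17B4 was the steadiest of the genes. Its levels were 9.48, 9.70, 9.53 and 9.53 in good-donor pools 1 to 4, against 9.42, 9.59, 9.39 and 9.39 in poor-donor pools 9 to 12, with overlap because poor-donor pool 10 exceeded good-donor pools 1, 3 and 4. The ratio was positive and small on each array, at 0.06, 0.10, 0.14 and 0.14, and its mean of 0.11 ± 0.04 (SD, n = 4) was 1.08-fold with a 95% interval of -0.01 to 0.24 (limma adjusted p = 1). Over all probes tested, 3.06% had a smaller residual SD.

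**Figure D2:**
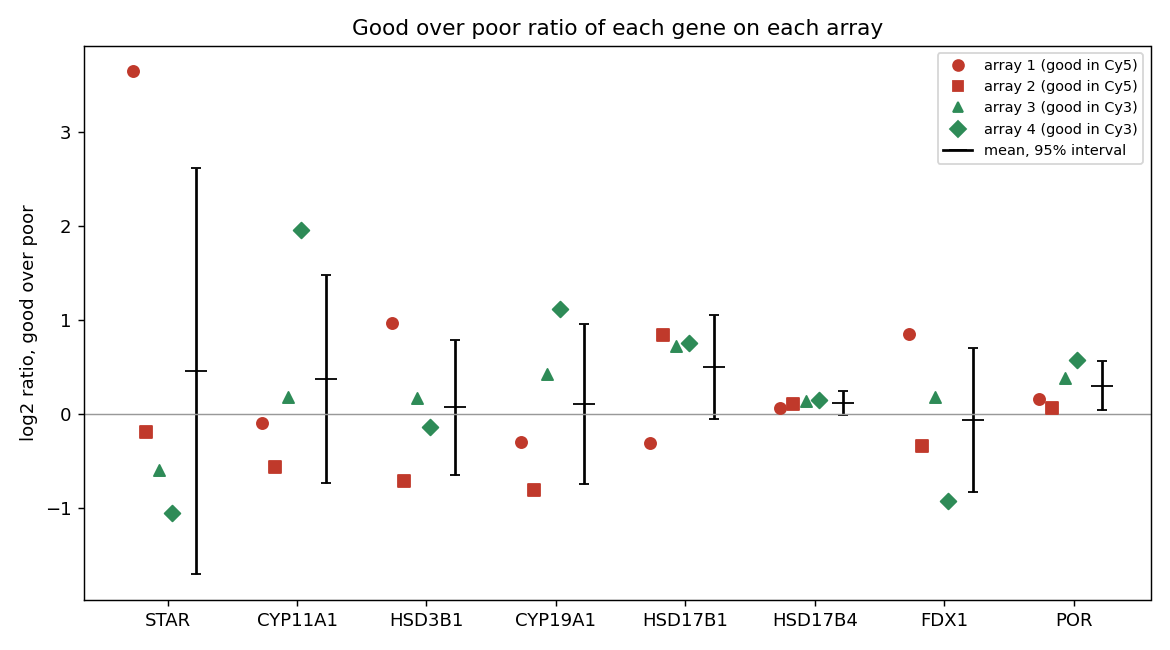
Log2 ratio of good over poor (y axis) for the brightest probe of each gene (x axis) on each of 4 arrays, shaped by array and coloured by the dye of the good-donor pool, with the mean and its 95% interval from limma in black. The intervals of STAR and CYP11A1 are the widest, those of POR (0.04 to 0.56) and HSD17B4 (-0.01 to 0.24) the narrowest, and the points of CYP19A1 and CYP11A1 separate by dye.

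Between the donor groups, none of the 8 genes passed the adjusted threshold of 0.05, and 0% of all probes tested did. By an exact two-sided sign-flip permutation test over the 4 arrays, which cannot give less than 0.125, POR and HSD17B4 had that smallest p. Every probe with 1 sign on 4 of 4 arrays gets this p, so it only restates the count of signs given below. With an unadjusted limma p under 0.05, 1 of the 8 (POR) was higher in good-donor pools, against 2.17% of all probes, and 0 were lower, against 1.37%. POR was not under that p with median centring or without array 3 or array 4. HSD17B1 came under it with plain background subtraction, with array weights and without array 1, and HSD17B4 with no filter on dim probes and with a dye term. In the other direction, STAR came under it without array 1, with a mean ratio of -0.61, lower in good-donor pools. A positive ratio on 4 of 4 arrays was found for 2 of the 8 (POR and HSD17B4), against 5.11% of all probes, and a negative one on 4 of 4 for 0, against 4.18%. Pool levels did not overlap between the donor groups for 0 of the 8, against 1.89% of all probes. A mean ratio above 0 was found for 7 of the 8, all but FDX1, against 49.2% of all probes, and for 5, 8, 7 and 6 of the 8 without arrays 1 to 4 in turn. Their median ratio was 0.21, against -0.0013 over all probes tested, and on arrays 1 to 4 their median was 0.11, -0.27, 0.18 and 0.36. The 8 genes do not vary independently of one another, so these counts hold fewer than 8 separate values.

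The genes differed more in how they varied than in the donor comparison. The SD of the ratio over the 4 arrays had a median of 0.73 for the 8 genes, against 0.17 for all probes tested, and 6 of the 8 lay in the upper 10% of all probes, where the SD exceeded 0.45. POR and HSD17B4 were the exceptions, with SDs of 0.23 and 0.04. The comparison was not matched for signal. The probes of the 6 genes were brighter than 87.7% (HSD17B1) to 98.95% (CYP11A1) of all probes, and that of HSD17B4 than 91.2%. Whether the SDs are large for probes of such signal was not tested.

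Across pools the genes fell into combinations that crossed the order of the pathway. With the mean of each dye taken off, STAR, HSD3B1 and FDX1 went together over the 8 pools. The r was 0.88 for STAR and HSD3B1, 0.85 for HSD3B1 and FDX1, and 0.81 for STAR and FDX1. Most of the spread of HSD3B1 and FDX1 lay in the Cy5 pools. Highest minus lowest level was 1.93 in Cy5 and 0.25 in Cy3 for HSD3B1, and 1.25 and 0.33 for FDX1. Among the pools in Cy3, good-donor pool 4 was the highest in STAR but the lowest in FDX1. CYP11A1 went with CYP19A1 (r = 0.88) and less closely with POR (r = 0.66), and POR had r = 0.75 with HSD17B1 and 0.69 with CYP19A1. Between STAR and CYP11A1, the first steps in sequence, r was 0.19, and it was -0.13 between FDX1 and CYP11A1, which work as a pair. HSD17B1 ran against STAR (r = -0.54) and FDX1 (r = -0.50). These values describe 8 pools on 4 arrays and carry no test.

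Several genes stood high or low together in good-donor pools 1 and 2 and in poor-donor pool 12. On the dye-centred scale, good-donor pool 1 was high in STAR (1.88), HSD3B1 (0.99), FDX1 (0.45), CYP11A1 (0.84) and CYP19A1 (0.46), while good-donor pool 2 was low in STAR (-2.05), HSD3B1 (-0.94) and FDX1 (-0.72) and high in HSD17B1 (0.59). Poor-donor pool 12 had high STAR (1.16) and FDX1 (0.52) together with the lowest CYP11A1 (-0.98), CYP19A1 (-0.44), HSD17B1 (-0.63) and POR (-0.35) of the 8 pools. Good-donor pool 4, with STAR at 1.38, had HSD3B1 at 0.09, FDX1 at -0.09, CYP19A1 at 0.01 and CYP11A1 at 0.28. The dimmer CYP19A1 probe EMBV3_08064 was lowest in good-donor pool 4 among the 4 pools in Cy3, at 7.73 on the level scale.

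**Figure D3:**
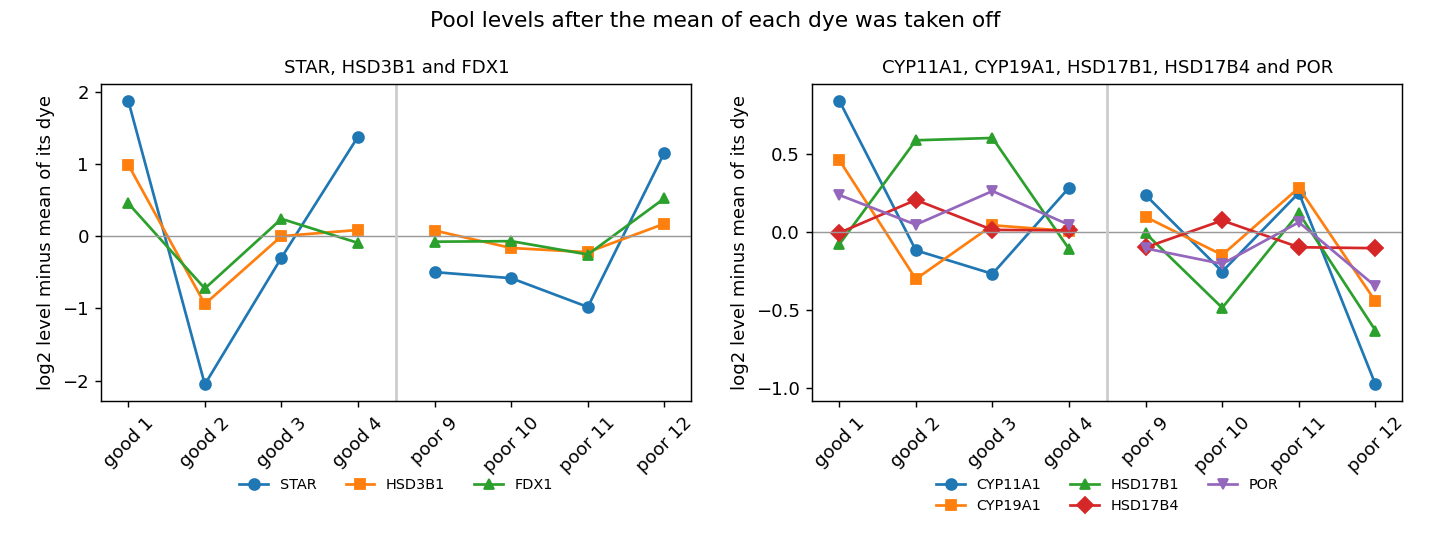
Log2 level minus the mean of the 4 pools of the same dye (y axis) in good-donor pools 1 to 4 and poor-donor pools 9 to 12 (x axis), for STAR, HSD3B1 and FDX1 (left) and for CYP11A1, CYP19A1, HSD17B1, HSD17B4 and POR (right). Lines only join the points of a gene. STAR reaches 1.88 in good-donor pool 1 and 1.16 in poor-donor pool 12, where CYP11A1 is at -0.98.

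Pool 12 also stood apart in markers of other cell types. The mean level of 9 leukocyte markers was 6.65 to 7.08 in good-donor pools and 7.0 to 8.36 in poor-donor pools, with pool 12 the highest, and that of 8 epithelium markers was 7.51 to 9.60 in good-donor pools and 8.81 to 11.18 in poor-donor pools, again with pool 12 the highest. Of these, 7 of 9 leukocyte and 7 of 8 epithelium markers were above the control spots in all 8 channels. S100A9, a neutrophil protein, was at 8.07, 7.46, 7.04 and 6.83 in good-donor pools 1 to 4, against 8.42, 9.15, 7.71 and 11.49 in poor-donor pools 9 to 12. KRT4, an epithelial keratin, was at 8.88, 7.25, 6.19 and 7.47 in good-donor pools, against 9.96, 10.59, 8.33 and 13.80 in poor-donor pools. EPCAM, KRT7, KRT19, CLDN4 and CLDN7 were also highest in pool 12. KRT18 and OVGP1 were not, at 9.36 and 10.03 there, against 10.82 in pool 11 and 12.30 in pool 10. The leukocyte marker CD68 was at 8.17 both in pool 12 and in good-donor pool 3. The mean of 8 granulosa markers lay between 11.30 and 11.69 in good-donor pools and between 10.88 and 11.59 in poor-donor pools, and pool 12, at 11.43, was the lowest of the 4 pools in Cy5, against 11.46, 11.69 and 11.59 in good-donor pools 1 and 2 and poor-donor pool 11. Among the 4 pools in Cy5, pool 12 was the lowest in AMH, INHA, INHBA, FOXL2 and SERPINE2, but not in FSHR, FST or AMHR2. Some of these gaps were small, with INHBA at 15.52, against 15.53 in good-donor pool 1. SERPINE2 was at 15.42, against 15.47 in poor-donor pool 11. FOXL2 was dim, above the control spots in 2 of 4 poor-donor pools. The 4 pools in Cy3 ran lower in the mean of the granulosa markers, at 11.34 and below. The part of these other cells in the low CYP11A1, CYP19A1, HSD17B1 and POR and the high STAR and FDX1 of pool 12 was not tested. Without array 4, which holds pool 12, the mean ratio of HSD17B1 was 0.42 and that of POR 0.20.

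Of the luteal markers, which in cattle mark cells after the surge of luteinising hormone, PTGFR, RGS2 and VNN2 had their highest level in pool 12, while OXT and PGR were lowest among poor-donor pools there. RGS2, a regulator of G protein signalling, was at 9.26, 7.14, 9.83 and 8.22 in good-donor pools 1 to 4, against 7.52, 8.42, 8.19 and 10.01 in poor-donor pools 9 to 12. Pool 12 led and good-donor pool 2 was the lowest, as for FDX1, but good-donor pool 3 was second in RGS2 and low in STAR. VNN2, a pantetheinase, was at 11.16, 9.39, 10.01 and 9.45 in good-donor pools, against 10.43, 12.10, 10.19 and 13.23 in poor-donor pools. OXT, which encodes oxytocin, was at 7.58 to 8.13 in good-donor pools and 7.76 to 8.07 in poor-donor pools, with pool 12 at 7.76. The progesterone receptor PGR had its lowest level in pool 12, at 9.11, against 9.51 to 9.90 in good-donor pools. PTGFR, the receptor for prostaglandin F, was dim, at 6.17 to 6.30 in good-donor pools, 2 of 4 of them above the control spots, and 6.31 to 6.42 in poor-donor pools. Its levels did not overlap between the donor groups, as for 1.89% of all probes tested, and its mean ratio was -0.14 ± 0.02 (SD, n = 4, limma adjusted p = 1). The mean of the 5 luteal markers ranged over 8.03 to 8.84 among good-donor pools and 8.37 to 9.31 among poor-donor pools.

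**Figure D4:**
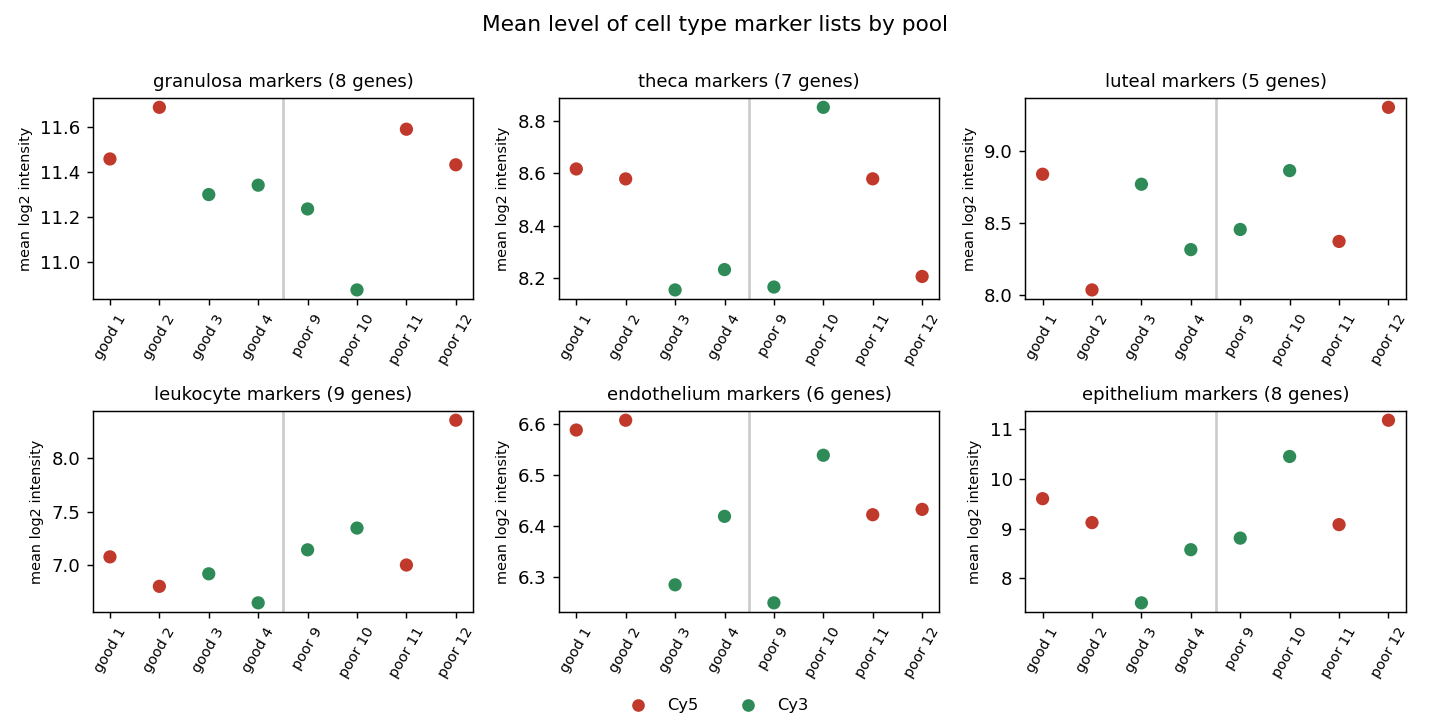
Mean log2 intensity (y axis, a separate scale in each panel) of 6 marker lists in good-donor pools 1 to 4 and poor-donor pools 9 to 12 (x axis), coloured by dye. Poor-donor pool 12 has the highest mean of leukocyte (8.36) and epithelium (11.18) markers. Its granulosa mean (11.43) is the lowest of the 4 pools in Cy5, close to good-donor pool 1 (11.46), and above the 4 pools in Cy3.

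Theca cells, the source of androgen for aromatase, were checked by CYP17A1, which granulosa cells lack. Its probe was dim, at 6.38, 6.30, 6.30 and 6.31 in good-donor pools 1 to 4, against 6.35, 6.37, 6.30 and 6.24 in poor-donor pools 9 to 12, and it was above the control spots in 4 good-donor and 3 of 4 poor-donor pools. INSL3, the other theca product on the list, had a mean ratio of 0.04 ± 0.17 (SD, n = 4). The mean of 7 theca and stroma markers lay between 8.16 and 8.62 for good-donor pools and between 8.17 and 8.85 for poor-donor pools, and the part of theca cells in the STAR levels was not tested.

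The wider pathway had 63 other genes on 6 lists, of which 56 had a probe and 47 were tested. No gene passed the adjusted threshold. Mean ratios were above 0 for 22 and below 0 for 25, their median was -0.02, and on 4 of 4 arrays 3 were positive (against 5.11% of all probes) and 0 negative (against 4.18%). By list, the mean was below 0 for 6 of 7 genes of cholesterol delivery (median -0.06) and 16 of 20 other steroid enzymes (median -0.04). It was above 0 for 7 of 8 transcription factors (median 0.11), 3 of 3 steroid receptors (median 0.11), 4 of 5 genes of gonadotropin signalling (median 0.01) and 3 of 4 electron carriers (median 0.04). Of all probes tested, 49.2% had a mean above 0. The lists are short, their genes may not vary independently, and no list was tested.

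**Figure D5:**
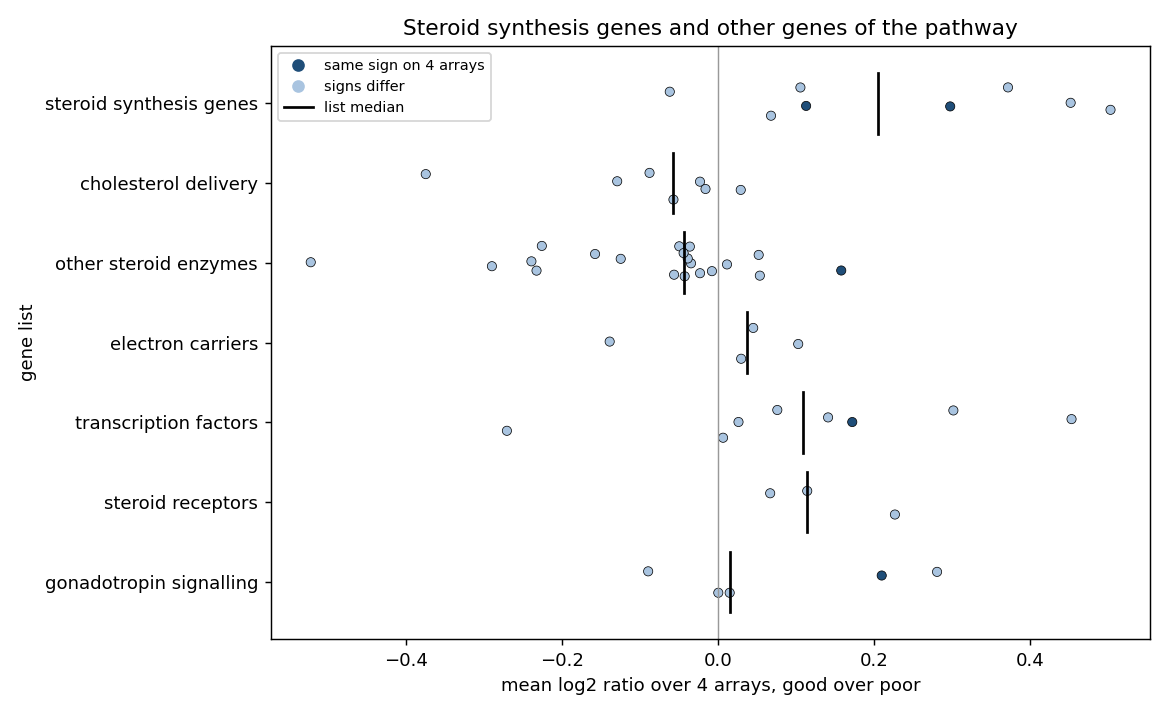
Mean log2 ratio of good over poor over 4 arrays (x axis) for the 8 steroid synthesis genes and for the other genes of the pathway by list (y axis, spread vertically only to separate points), dark where all 4 arrays had the same sign, with the list median as a bar. The median is 0.21 for the 8 genes and between -0.06 and 0.11 for the other lists, and no gene passes the adjusted threshold.

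With an unadjusted limma p under 0.05, 3 of the 47 were higher in good-donor pools and 0 lower, against 2.17% and 1.37% of all probes. LHCGR, the receptor for luteinising hormone, had ratios of 0.27, 0.45, 0.44 and -0.03 on arrays 1 to 4 and a mean of 0.28 ± 0.23 (SD, n = 4). FOXL2, a transcription factor of granulosa identity, averaged 0.17 ± 0.11 (SD, n = 4), but its probe exceeded the control spots in 2 of 4 poor-donor pools, against 4 good-donor pools. HSD17B8, a dehydrogenase of the same enzyme class as HSD17B1 that also serves mitochondrial fatty acid synthesis, had 0.16 ± 0.10 (SD, n = 4). The adjusted limma p was 1 for each.

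GATA4, a transcription factor of granulosa cells, followed with 0.30 ± 0.28 (SD, n = 4), and its levels were 12.44, 12.64, 12.25 and 12.33 in good-donor pools against 12.23, 12.04, 12.29 and 11.89 in poor-donor pools. FSHR, the receptor for follicle-stimulating hormone, had 0.21 ± 0.25, with a positive ratio on 4 of 4 arrays. PGR had 0.23 ± 0.29, CBR1, a carbonyl reductase, -0.24 ± 0.28, and SRD5A1, a steroid 5-alpha-reductase, -0.23 ± 0.32 (SD, n = 4 for each gene). CBR1 and SRD5A1 had their highest level in poor-donor pool 12, at 7.29 and 7.93, against 6.53 to 6.77 and 7.02 to 7.36 in good-donor pools.

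The nuclear receptors that bind promoters of steroid enzymes overlapped between the donor groups. NR5A2, known as LRH-1, was at 11.64 to 11.91 among good-donor pools and 11.40 to 11.79 among poor-donor pools, with a mean ratio of 0.14 ± 0.24 (SD, n = 4) and a 95% interval of -0.13 to 0.41. NR5A1, known as SF-1, was dim, at 6.62 to 6.89 among good-donor pools and 6.59 to 6.85 among poor-donor pools, and its ratios of -0.22, -0.22, 0.25 and 0.22 changed sign with the dye. CYB5A, cytochrome b5, an electron donor of microsomal P450 enzymes, had 0.03 ± 0.32 (SD, n = 4) and its highest level, 12.69, in poor-donor pool 12.

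Genes with the most similar pattern over the 8 dye-centred pool levels were sought among 10460 named genes above the control spots in all 8 channels. For STAR these were HDHD5 (r = 0.98), FBLN1 (r = 0.97) and SESN3 (r = 0.96), and for CYP11A1 they were AP1S2 (r = 0.99), PPM1K and LGALS3BP (r = 0.98 each). LSR (r = 0.99), WDR33 and CNOT9 (r = 0.98 each) were the nearest to CYP19A1, and NDUFA4 (r = 0.99), LOC100294771 and LOC100336976 (r = 0.98 each) to HSD17B1. None of the 8 steroid synthesis genes was among them. These names describe 8 levels that share arrays, and carry no test.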

How the data were processed

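Per the file headers, the authors deposited mean foreground and median local background intensity of every spot in the red (Cy5) and green (Cy3) channels, not background-subtracted or normalized, with no spot flags. The sources used here do not name the scanner software. The 22 closing rows of each file, which hold column summaries and no spot, were left out. The authors also deposited normalized log2 ratios by a method not given; against the ratios computed here they had r of -0.99, -0.97, -0.97 and -0.98 on arrays 1 to 4, so they run as poor over good, with column medians of 0.023, 0.0039, -0.015 and -0.029. They served as an alternative only.

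Intensities were corrected by normexp (offset 50), normalized by loess within arrays with control spots at weight 0, and levels by Aquantile between arrays (limma 3.58.1, R 4.3.3). Of 43794 probes, 1 spot each, 31917 exceeded the 95th percentile of 757 dark and negative control spots in at least 4 of 8 channels and were tested. In limma (lmFit, eBayes) each probe's mean ratio over 4 arrays was set against 0 in a two-sided test, adjusted by Benjamini-Hochberg over all probes tested, a threshold of 0.05, and 3 residual and 1.98 prior degrees of freedom. A second fit added the dye. The number of arrays limits precision. The fits were tested on simulated data.

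In the platform annotation, which is old, 21790 probes had 1 symbol, 22004 had none and 0 had several. RefSeq's genes of ARS-UCD2.0 held 14114 of the 15229 symbols as current, 982 more were replaced by the gene whose synonym they are, and 133 stayed as they were. A gene was represented by its brightest tested probe. Members and lists were chosen with earlier results of these data known. Named beside the members were CYP17A1, NR5A1, NR5A2, CYB5A, the 8 other pathway genes with the smallest p, the 3 genes most like CYP11A1, CYP19A1, STAR and HSD17B1, and markers beside the results they move with. Of the other marker lists, endothelium had means of 6.28 to 6.61 among good-donor pools and 6.25 to 6.54 among poor-donor pools, oocyte 6.20 to 6.45 and 6.21 to 6.32, and red blood cell 6.56 to 7.51 and 6.51 to 7.19.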

Additional observations from a re-analysis of the deposited data

Results flagged for a closer look

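Of 48 sets of 4 values examined, 5 had 1 value far from the other 3, against 2.4 by chance. The sets share arrays, and the ratios and levels of a probe share values, so they are not independent and 2.4 is only a guide. On array 1 the ratio of the STAR probe EMBV3_20036 was 3.47, against -0.18 to -0.06 on the other arrays. Also on array 1, HSD17B1 had a ratio of -0.31, against 0.72 to 0.84, and PGR one of -0.20, against 0.31 to 0.40. Among poor-donor pools, FDX1 was at 11.69 in pool 12, against 10.78 to 10.91, and HSD17B4 at 9.59 in pool 10, against 9.39 to 9.42.

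Of the 12 probes, 5 had ratios of opposite sign in the 2 dye orientations on every array, against 29.4% of all probes tested. Their dye terms, the mean with good donors in Cy5 minus the mean over all 4 arrays, were 0.59 for the STAR probe EMBV3_18125, -0.70 for CYP11A1, and -0.66, -0.50 and -0.45 for the CYP19A1 probes EMBV3_07330, EMBV3_08064 and EMBV3_36093. The adjusted limma p of these terms was 0.384, 0.393, 0.246, 0.265 and 0.327. Probes of 1 gene are not independent.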

How the results depend on the processing

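No probe passed the adjusted threshold under any setting tried. An unadjusted limma p under 0.05 was reached by 1132 probes, and by 642 with median centring, 1839 with a dye term and 1705 without array 1. Means turned sign for STAR without array 1 (-0.61) and on the arrays with the good-donor pool in Cy3 (-0.82), for HSD3B1 without array 1 (-0.23), for CYP11A1 without array 4 (-0.16) and with good in Cy5 (-0.33), for CYP19A1 likewise (-0.23 and -0.55), and for FDX1 without array 2 (0.03), without array 4 (0.23) and with good in Cy5 (0.25). Leaving out 1 array gave -0.61 to 0.95 for STAR, -0.16 to 0.68 for CYP11A1, -0.23 to 0.33 for HSD3B1, -0.23 to 0.41 for CYP19A1, 0.39 to 0.77 for HSD17B1, 0.10 to 0.13 for HSD17B4, -0.36 to 0.23 for FDX1 and 0.20 to 0.37 for POR, and 5 to 8 genes with a mean above 0. The single orientations and the count of means above 0 were added after seeing the data. The cause of these turns was not tested. The number of other pathway genes with 1 sign on 4 arrays was 3 higher and 0 lower of 47, 3 higher and 1 lower with median centring, and 2 higher and 0 lower of 41 above the control spots in all 8 channels. The dye term of HSD3B1 was 0.06 with loess and -0.20 with median centring. The sign of each of the 8 means held with no background correction, plain subtraction, median centring, array weights and the authors' table. The other probes kept that of STAR and CYP19A1. Other filters, a dye term, separate channels and an intensity trend do not change the mean itself, so its sign could not turn there. With quantile normalization over all channels, highest minus lowest pool level was 3.92 for STAR, against 3.93, and 0.37 for HSD17B4, against 0.31. Signal near the control spots limits the ratios of CYP17A1, FOXL2, POR and the dimmest STAR probe.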
